A study of Mus musculus with 18 samples.

Results

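The heat shock proteins and co-chaperones examined here were 10 genes: Hspa1a, Hspa1b and Hspa8 of the HSP70 family, the HSP110 gene Hsph1, the HSP90 gene Hsp90aa1, the J-domain co-chaperone Dnajb1, the nucleotide exchange factor Bag3, the small heat shock proteins Hspb1 and Cryab, and the mitochondrial co-chaperonin Hspe1. They were taken by gene symbol from the 45151 symbols listed for all 3 kinds of sample, and all 10 were found. The samples were 6 of inguinal white adipocytes (iWAT), 6 of epididymal white adipocytes (eWAT) and 6 of brown adipose tissue (BAT), and RNA-seq was used in the study to find out which G protein-coupled receptors adipocytes express. All 18 came from wild-type male C57BL/6J mice aged 16 weeks that were fed regular chow, and no transgene or drug was involved in these libraries. Both white depots were digested with 3.3 mg/ml collagenase at 37 °C for 30 to 45 min, and the floating mature adipocytes were taken. BAT was neither digested nor fractionated and was snap frozen as whole tissue. Depot, digestion, purification of adipocytes and freezing therefore cannot be told apart in any comparison with BAT, while iWAT and eWAT shared the digestion. Libraries are named below by the number in their label, which is not explained there. P-values measure the spread between these libraries, which are not stated to be separate animals.

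Heat shock proteins are molecular chaperones: they bind unfolded or partly folded proteins, keep them from clumping and help them reach or regain their fold. HSP70 proteins work in a cycle of ATP hydrolysis that J-domain proteins such as Dnajb1 start and that exchange factors such as Bag3 and Hsph1 reset, HSP90 acts on late folding steps of kinases and hormone receptors, and small heat shock proteins hold unfolded proteins without using ATP. Many of these genes are transcribed within minutes of heat or other stress, when heat shock factor 1 (Hsf1) binds repeats of the letters GAA and TTC near their start sites, whereas Hspa8 is made constantly in most cells. Hspe1 closes the mitochondrial folding chamber formed by Hspd1, and brown fat is rich in mitochondria.

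The stretches upstream of the members' start sites are shown first because they carry the letters that heat shock factors are known to read. RefSeq promoter sequence (mouse build GRCm38.p6) was given for 7 of the 10 members and not for Hspa8, Hsp90aa1 or Cryab. The 250 bases before each start site were searched for GAANNTTC and TTCNNGAA, both of which read the same on the opposite strand. The motif was found in 5 of the 7 members, and 12.8% of all 32851 mouse promoters, or 14.5% of 27025 genes, hold it. Capitals mark the motif letters, and each stretch runs 5′ to 3′ on the gene's own strand.
Hspa1b, chr17:34959239-34959488, minus strand, whole 250 bases: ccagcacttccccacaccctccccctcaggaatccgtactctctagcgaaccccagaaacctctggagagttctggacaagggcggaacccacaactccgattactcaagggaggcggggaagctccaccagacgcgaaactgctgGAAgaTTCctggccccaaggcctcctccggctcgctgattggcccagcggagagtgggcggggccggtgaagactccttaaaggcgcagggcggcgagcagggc
Hspa1a, chr17:34972243-34972270, minus strand: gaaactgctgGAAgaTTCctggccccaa
Hspb1, chr5:135887792-135887839, plus strand: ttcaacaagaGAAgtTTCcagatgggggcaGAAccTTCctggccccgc
Hsph1, chr5:149636352-149636379, minus strand: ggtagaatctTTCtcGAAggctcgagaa
Hspe1, chr1:55088049-55088086, plus strand: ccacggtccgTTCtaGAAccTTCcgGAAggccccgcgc
In Hspa1a and Hspa1b the motif lay 104 to 97 bases upstream, inside the same 28 letters, and 247 of the 250 upstream bases were identical between both genes. Hspb1 held the motif at 2 positions. Hspe1 alone held a run of 3 units or more (GAANNTTCNNGAA or TTCNNGAANNTTC), which 0.466% of all promoters hold. Bag3 and Dnajb1 held none of these letters in the window, which says nothing about binding there. The match is one of letters, and no binding was measured.

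The next stretches are shown because several members have copies elsewhere that their own row does not hold. The mouse genome holds near-identical copies of 4 of the 10 members, 11 copies in all at 95% identity or more. Of these copies 5 had a row of their own (build mm9). Exon junctions were checked in these 5 only, and there the bases on both sides of each junction of the spliced mRNA stand joined. These letters thus occur at more than 1 place in the genome. Capitals mark the 4 bases on each side of the junction.
Hspa8 mRNA, exons 2 and 3, chr9:40610181-40610210 and chr9:40610501-40610530: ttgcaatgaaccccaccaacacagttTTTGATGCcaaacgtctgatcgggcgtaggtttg
Hspa8 copy, chr10:14466874-14466933: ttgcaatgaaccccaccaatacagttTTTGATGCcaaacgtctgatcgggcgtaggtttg
Hsp90aa1 mRNA, exons 2 and 3, chr12:111933729-111933758 and chr12:111933599-111933628: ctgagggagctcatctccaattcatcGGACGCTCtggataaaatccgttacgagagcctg
Hsp90aa1 copy, chr11:77107130-77107189: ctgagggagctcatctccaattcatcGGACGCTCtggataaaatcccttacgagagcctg
Hspb1 mRNA, exons 1 and 2, chr5:136364275-136364304 and chr5:136364919-136364948: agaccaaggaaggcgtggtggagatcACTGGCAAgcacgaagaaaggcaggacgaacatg
The copies on chromosomes 10 and 11 differ from the mRNA at 1 base of the 60 shown, and a copy of Hspa8 on chromosome 5 and one of Hspb1 on chromosome 13 differ at 0. All 8 junctions of Hspa8 and all 10 of Hsp90aa1 were joined in their copies that had a row.

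Most reads of these 3 genes were listed at the copies. For Hspa8, 87.8% to 90.7% of the reads of gene and copies lay at copies in the BAT libraries, 89.7% to 90.9% in eWAT and 88.5% to 90.7% in iWAT. For Hsp90aa1 the share was 73.1% to 75.8% over the 3 depots, and for Hspb1 it was 67.6% to 74.3%. The shares thus hardly moved between depots, while the reads themselves did (the plot of reads at genes and copies). How reads matching several places were assigned is not given in the sources used here, and a sum over copies may count a read more than once. Hspa1a and Hspa1b are such a pair of genes themselves, with 1918 of 1926 coding bases identical, and Hspa1a held 15.8% to 17.9% of the reads of the pair in iWAT, 14.96% to 19.5% in eWAT and 9.48% to 16.7% in BAT. Their separate values are therefore uncertain.

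**Figure D1:**
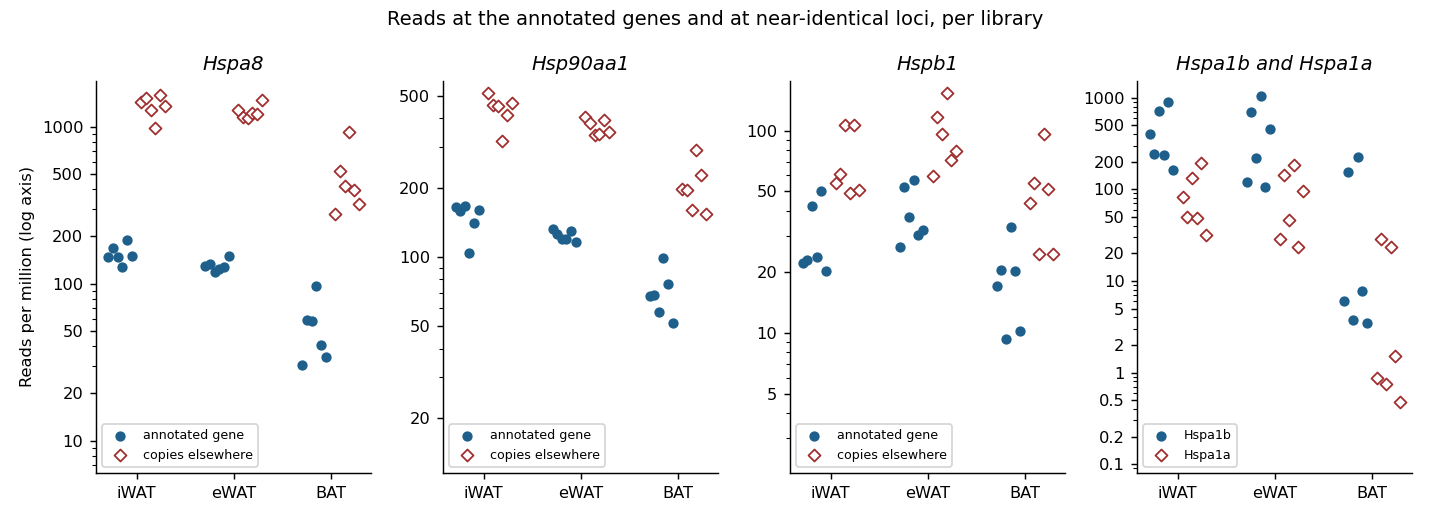
RPM (log axis) by depot for Hspa8, Hsp90aa1 and Hspb1, at the annotated gene (filled blue circles) and summed over its near-identical copies (open red diamonds). Each library gives 1 point of each kind. The last panel shows Hspa1b (filled) and Hspa1a at its annotated locus (open) in the same way. The copies hold 87.8% to 90.9% of Hspa8 reads in every library.

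The symbols Hspa1a and Hspa8 each had several rows, and the most-read row was not at the annotated gene. The most-read row named Hspa1a (chr17:35093976-35096183, minus strand) lay inside Hspa1b (chr17:35093374-35096183), and the one named Hspa8 was the single-exon copy at chr5:5781530-5783636. Levels below are given at the annotated genes, Hspa1a at chr17:35106144-35109101 and Hspa8 at chr9:40609067-40613283, and tests for both kinds of row. At the latter the merged row has 2 exons and 4156 bp, and the eWAT row 4 exons and 3158 bp. Both are longer than the 9-exon Hspa8 transcript of 2104 bp. Levels between depots are in RPM, a row's reads scaled to the sample's total, because eWAT rows are single transcripts and iWAT and BAT rows are genes with merged exons of another length. Between genes they are in RPKM, which also divides by row length.

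The libraries rested on 22929576 to 34512470 reads. Adipoq, the adipocyte hormone, was expressed in all 3 depots and stood 2.35 higher in iWAT and 2.15 higher in eWAT than in BAT on the log2 scale. Ucp1, the uncoupling protein of brown fat, had log2 fold changes of -9.02 and -12.19. Some values move with the depots beside the chaperones. All 10 immediate-early genes listed, such as Fos and Jun, were called higher in both white depots than in BAT, with summed levels of 8101 to 11920 RPM in iWAT, 5695 to 7876 in eWAT and 102 to 391 in BAT. Summed macrophage markers reached 225 to 2849 RPM in eWAT, where library 15 was highest, 47.1 to 304 in iWAT and 45.5 to 96.3 in BAT. Summed skeletal muscle markers were 0.876 to 3373 RPM in BAT, where library 12 was highest. The part of any of these in the results below was not tested, and in bulk RNA a change in the number of cells of a type cannot be told apart from a change of RNA per cell.

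The question was whether the collagenase-released adipocytes and the undigested tissue differed in chaperone transcripts. Summed at their annotated loci, the reads of these 10 genes made up 1138 to 2245 RPM in iWAT (median 1612), 912 to 1964 in eWAT (median 1136) and 213 to 778 in BAT (median 292), so neither white depot overlapped BAT. The sum leaves out reads at copies. Dnajb1 and Hspa1b had the largest means in the white depots, 451 and 441 RPM in iWAT and 213 and 438 in eWAT, beside mean sums of 1659 and 1293. The counts that follow rest on the most-read row of each symbol, so that the row named Hspa1a and that of Hspa1b are nearly the same place. In iWAT against BAT, 8 of the 10 were called in either direction, beside 67.8% of all rows tested. Of these 7 were higher, where 34.2% of all rows were, and 1 was lower, against 33.6% of all rows (edgeR's quasi-likelihood test, Benjamini-Hochberg adjusted p under 0.05). In eWAT against BAT, 7 were called, beside 69.9% of all rows, of which 6 were higher, against 35.3% of all rows, and 1 lower, against 34.6%. The shares called in either direction were thus near those of all rows, and it was the direction that leaned one way. The median log2 fold change of the 10 was 1.44 for iWAT and 1.05 for eWAT, beside 0.01 and 0.03 over all rows. Libraries did not overlap for 4 genes higher in iWAT (31.9% of all rows) and for 5 higher in eWAT (34.5% of all rows). At the annotated loci 7 were higher and 1 lower in each comparison, and 5 genes higher in iWAT and 5 higher in eWAT did not overlap BAT. Scaling by library totals in place of TMM moved the median of all rows by 0.27 and 0.31. Overlap, here and below, was judged in RPM, which rests on library totals without TMM, so ranges that nearly touch may overlap after TMM. Both comparisons share the BAT libraries.

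**Figure D2:**
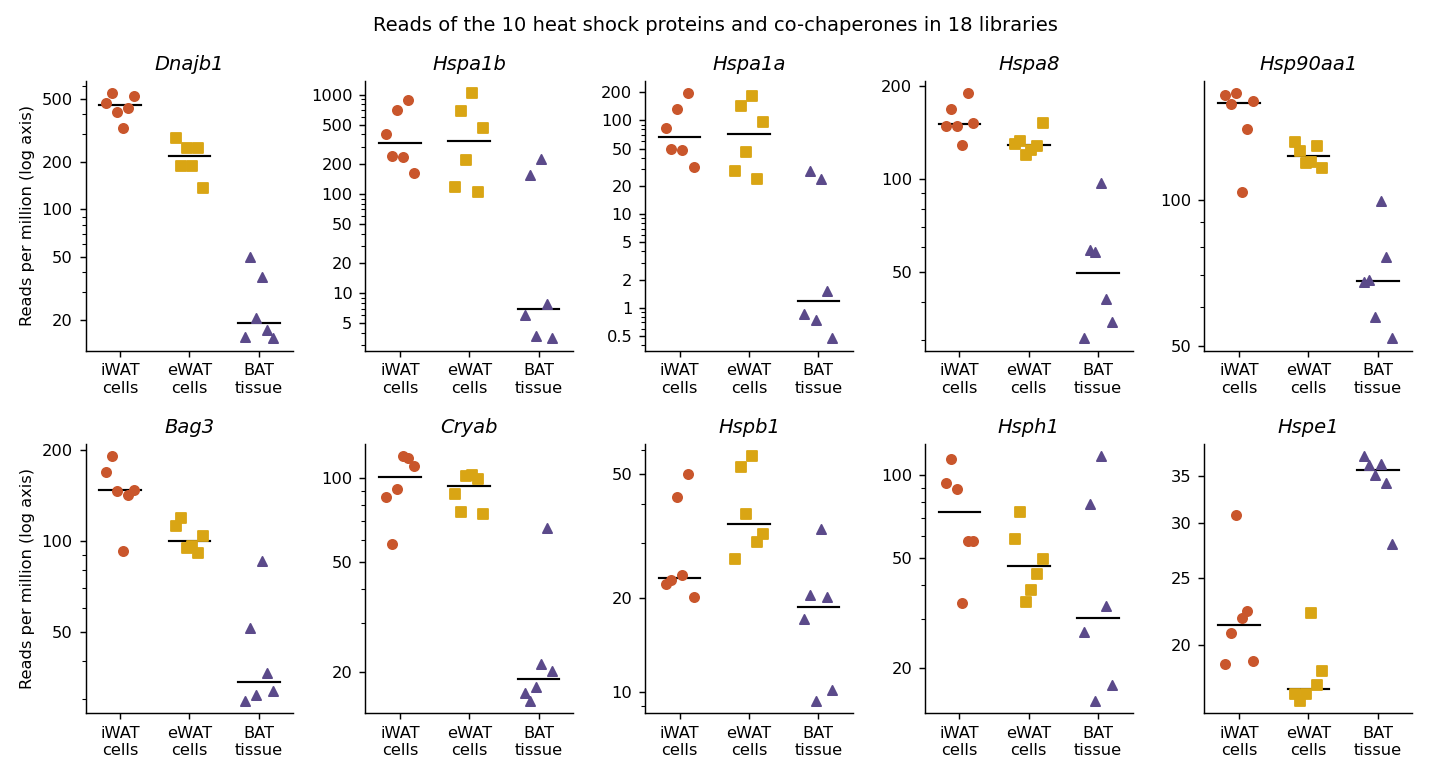
RPM (log axis) of each of the 10 genes at its annotated locus, with 1 point per library and a bar at the median of each depot (n = 6). Dnajb1 sits at 326 to 541 in iWAT, 136 to 280 in eWAT and 15.2 to 50.3 in BAT, and Hspe1 is the 1 gene whose white medians lie below that of BAT.

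**Figure D3:**
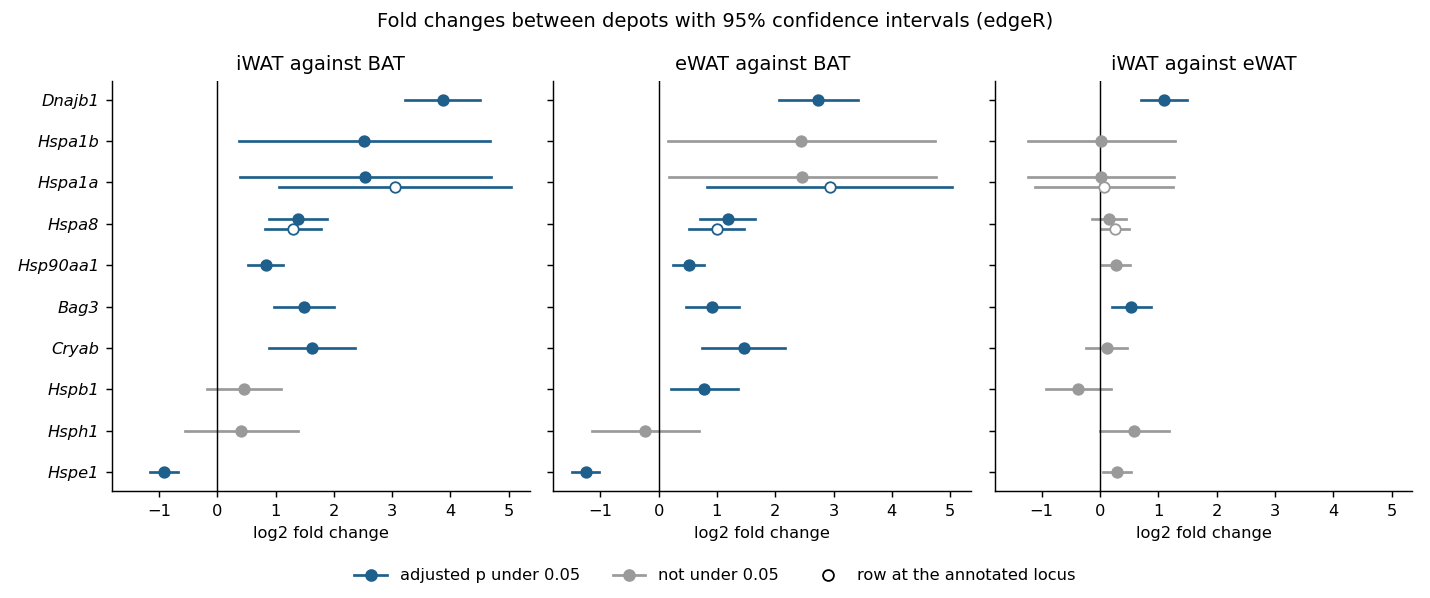
Log2 fold changes with 95% confidence intervals from edgeR for the 3 comparisons, filled where the call was made on the most-read row and open at the annotated locus, blue where the adjusted p was under 0.05. Dnajb1 is at 3.87 for iWAT and 2.74 for eWAT against BAT, Hspa1a at its annotated locus is at 3.05 and 2.93, and the intervals of Hspa1a and Hspa1b are the widest.

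Dnajb1, the J-domain protein that hands unfolded proteins to HSP70, showed the clearest difference. Its level was 468, 541, 412, 326, 438 and 523 RPM in iWAT libraries 7, 11, 12, 13, 14 and 15. In eWAT it ran from 136 to 280 RPM with a median of 216, and in BAT from 15.2 to 50.3 with a median of 19.0. The 3 depots did not overlap, iWAT being highest and BAT lowest. On the log2 scale the fold change was 3.87 ± 0.30 (SE, n = 6 per depot) for iWAT against BAT, a 14.6-fold difference (edgeR, adjusted p = 5.74e-08), and 2.74 ± 0.31 for eWAT, a 6.68-fold difference (edgeR, adjusted p = 3.52e-06). It was called under every alternative that included it, in both comparisons. Within BAT, library 7 (50.3 RPM) and library 11 (37.5 RPM) stood highest, and without either the iWAT value was 4.13 or 3.93. The gene lies at chr8:86132074-86135802 on the plus strand.

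Hspa1b, a stress-inducible HSP70, varied widely between libraries of 1 depot. Its levels in BAT libraries 6, 7, 8, 11, 12 and 13 were 6.00, 155, 3.74, 226, 7.79 and 3.51 RPM. In iWAT it ran from 162 to 893 RPM with a median of 324, and in eWAT from 106 to 1033 with a median of 341. So 4 BAT libraries lay below every white library, and BAT libraries 7 and 11 lay within the white range. For iWAT against BAT the log2 fold change was 2.53 with a 95% interval of 0.37 to 4.68 (5.76-fold, edgeR, adjusted p = 0.0379), and for eWAT 2.45 with an interval of 0.16 to 4.74, which missed the threshold (edgeR, adjusted p = 0.0541). Neither call was stable: the iWAT call was lost without any 1 of iWAT libraries 7, 12 and 14 or BAT libraries 6, 8, 12 and 13, with an adjusted p of up to 0.0731, and the eWAT call was gained without eWAT library 7 or 14 or BAT library 7 or 11. Without BAT library 11 the log2 values were 3.35 and 3.28.

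Hspa1a, the neighbouring and nearly identical gene, had 31.8 to 194 RPM in iWAT (median 65.8) and 23.6 to 182 in eWAT (median 71.6). In BAT it had 0.869, 28.8, 0.749, 23.6, 1.51 and 0.472 RPM in libraries 6, 7, 8, 11, 12 and 13. The same BAT libraries, 7 and 11, were high for both genes. In RPM iWAT did not overlap BAT at this locus, though the edges were near (31.8 and 28.8). There the log2 fold change was 3.05 ± 0.92 for iWAT (8.28-fold, edgeR, adjusted p = 0.00947) and 2.93 ± 0.97 for eWAT (7.63-fold, edgeR, adjusted p = 0.0158). Both calls held with any 1 library left out, with adjusted p of up to 0.0203 in iWAT and 0.0354 in eWAT, and without BAT library 7 the log2 values were 3.83 and 3.73. At the most-read row, which lies inside Hspa1b, the values were 2.54 (adjusted p = 0.0369) and 2.47 (adjusted p = 0.0529). The iWAT call there was lost without any 1 of iWAT libraries 7, 12 and 14 or BAT libraries 6, 8, 12 and 13, with an adjusted p of up to 0.0705, and without BAT library 11 the value was 3.37. With the reads of both genes summed the values were 2.60 (edgeR, adjusted p = 0.0330) and 2.52 (edgeR, adjusted p = 0.0474). Rows of Hspa1b also overlap 7330403C04Rik on the other strand, and the kit does not mark strand.

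Hspa8, the HSP70 that most cells make at all times, was higher in the white depots by a smaller factor. At the chromosome 9 gene it had 129 to 189 RPM in iWAT (median 150), 119 to 151 in eWAT (median 128) and 30.4, 58.9, 57.8, 97.0, 41.0 and 34.3 in BAT libraries 6, 7, 8, 11, 12 and 13. Every white library was above every BAT library. The log2 fold change was 1.30 ± 0.22 for iWAT (2.46-fold, edgeR, adjusted p = 1.40e-04) and 0.995 ± 0.22 for eWAT (1.99-fold, edgeR, adjusted p = 0.00114). The chromosome 5 row gave 1.38 and 1.19, and the sum with all copies 1.28 and 1.09, and each was called. Since near-identical loci may hold the same reads, these values are not independent of each other. With copies added, the median level was 1553 RPM in iWAT, 1336 in eWAT and 457 in BAT.

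Hsp90aa1, the stress-responsive cytosolic HSP90 (chr12:111928815-111940938, minus strand), followed the same order with the smallest factor of the genes called higher in iWAT. Its level was 104 to 167 RPM in iWAT (median 159), 117 to 132 in eWAT (median 123) and 51.7 to 99.5 in BAT (median 68.1). In RPM the white depots lay above BAT without overlap. The log2 fold change was 0.83 ± 0.14 in iWAT (1.78-fold, edgeR, adjusted p = 1.47e-04) and 0.51 ± 0.12 in eWAT (1.43-fold, edgeR, adjusted p = 0.00209). The edges were close, at 104 RPM in iWAT and 99.5 in BAT. They cross once the TMM factors of that comparison (1.05 to 1.17 in iWAT, 0.849 to 0.996 in BAT) are applied. The values with copies added were 0.84 and 0.54. In eWAT the transcript row of highest RPKM, in place of the most-read one, gave -1.58 on reads, a value that depends on row length. That row is 325 bp long and held 533 to 768 reads, while the merged BAT row is 3931 bp long. In mean RPKM it stood at 64.2, above the 17.9 of BAT.

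Hsph1, the HSP110 protein that exchanges nucleotide on HSP70 (chr5:150400873-150438951, minus strand), did not pass the test against BAT. It had 34.4 to 115 RPM in iWAT (median 73.5), 34.7 to 73.8 in eWAT (median 46.7) and 26.9, 78.6, 15.1, 118, 33.5 and 17.3 in BAT libraries 6, 7, 8, 11, 12 and 13. BAT libraries 7 and 11 again stood highest, and library 11 was above every white library. The log2 fold change was 0.41 with an interval of -0.56 to 1.38 for iWAT (edgeR, adjusted p = 0.434) and -0.23 with an interval of -1.15 to 0.69 for eWAT (edgeR, adjusted p = 0.649). These intervals hold changes of over 2-fold. The eWAT value turned with row length, since the merged row is 7155 bp and the eWAT transcript 3802 bp. On RPKM, which also leaves out TMM, limma gave 1.31 (adjusted p = 0.0139).

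Bag3, the exchange factor that links HSP70 to small heat shock proteins and to autophagy (chr7:135667097-135690495, plus strand), was higher in both white depots. Its levels were 92.6 to 190 RPM in iWAT (median 147), 91.2 to 119 in eWAT (median 99.7) and 29.6, 51.5, 30.9, 85.7, 36.7 and 31.9 in BAT libraries 6, 7, 8, 11, 12 and 13. The white depots did not overlap BAT, and BAT libraries 11 and 7 were the highest of that tissue. In edgeR the log2 fold change was 1.49 ± 0.24 for iWAT (2.82-fold, edgeR, adjusted p = 7.67e-05) and 0.92 ± 0.21 for eWAT (1.89-fold, edgeR, adjusted p = 0.00156).

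Cryab, a small heat shock protein abundant in lens and muscle (chr9:50560278-50564738, plus strand), had 58.1 to 120 RPM in iWAT (median 101) and 74.1 to 103 in eWAT (median 93.6). In BAT 5 libraries had 15.8 to 21.4 RPM, and library 12 had 66.1. That library also held the highest skeletal muscle marker sum, 3373 RPM beside a BAT median of 65.9, and the highest BAT levels of the muscle small heat shock genes Hspb6 and Hspb7, 85.0 and 24.6 RPM. The log2 fold change was 1.62 ± 0.34 for iWAT (3.07-fold, edgeR, adjusted p = 8.19e-04) and 1.46 ± 0.33 for eWAT (2.76-fold, edgeR, adjusted p = 0.00138), and without BAT library 12 it was 2.12 and 1.95.

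Hspb1, the small heat shock protein HSP25 of mice (chr5:136363789-136365433, plus strand), had smaller differences than Cryab. It had 20.2 to 50.2 RPM in iWAT (median 23.2), 26.7 to 57.3 in eWAT (median 34.7) and 9.32 to 33.4 in BAT (median 18.7), so all 3 ranges overlapped. The log2 fold change of 0.79 ± 0.27 in eWAT passed the test (1.72-fold, edgeR, adjusted p = 0.0187), and the value of 0.46 in iWAT did not, with an interval of -0.17 to 1.09 (edgeR, adjusted p = 0.181). Under limma on RPKM the iWAT difference was called (0.75, adjusted p = 0.0449), in a fit without TMM. Leaving out TMM alone moved the median of all rows by 0.27 in this comparison. The eWAT value with the chromosome 13 copy added was 0.69 (edgeR, adjusted p = 0.0474).

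Hspe1, the lid of the mitochondrial chaperonin (chr1:55144976-55148161, plus strand), was the 1 member lower in the white depots. It had 18.8 to 30.7 RPM in iWAT (median 21.3), 16.6 to 22.2 in eWAT (median 17.3) and 27.9 to 37.4 in BAT (median 35.7). The eWAT libraries all lay below BAT (17.6% of all rows did), and iWAT overlapped BAT at its edge, where 16.0% of all rows lay lower without overlap. In iWAT, whose rows match those of BAT, the log2 fold change was -0.91 ± 0.11, which is 1.88-fold lower (edgeR, adjusted p = 6.22e-06). In eWAT it was -1.25 ± 0.10 (edgeR, adjusted p = 1.79e-07), but this call depends on row length. The merged row is 1487 bp and the eWAT transcript 768 bp. Row length as an offset gave -0.30 (edgeR, adjusted p = 0.0176). On RPKM, which also leaves out TMM, limma gave 0.02 (adjusted p = 0.843). Hspd1, which forms the chamber that Hspe1 closes and whose row overlaps it by 112 bp, was lower too, at -0.99 ± 0.09 in iWAT (edgeR, adjusted p = 4.18e-07) and -1.11 ± 0.12 in eWAT (edgeR, adjusted p = 1.98e-06).

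Between the adipocytes of both white depots, which shared the digestion, the share of members called was near that of all rows. Called in either direction were 2 of the 10, beside 21.5% of all rows. Both were higher in iWAT than in eWAT, as 11.4% of all rows were, and 0 were called lower, where 10.1% of all rows were and 4.79% lay lower without overlap. At an unadjusted p under 0.05 and by DESeq2 the count of lower members was 0 too, while limma on RPKM called 1, Hspe1. Dnajb1 was 1.09 ± 0.18 higher on the log2 scale (2.13-fold, edgeR, adjusted p = 0.00143), higher in all 6 iWAT libraries than in any eWAT library, which held for 6.18% of all rows. Bag3 was 0.53 ± 0.16 higher (1.45-fold, edgeR, adjusted p = 0.0276), a call lost without any 1 of iWAT libraries 7 and 11 and eWAT libraries 11, 13 and 14, with adjusted p up to 0.0620. The value for Hspa1b was 0.02, and that for Hspa1a was 0.02 at the most-read row, which lies inside Hspa1b, and 0.066 at its own locus. Those of the other 6 ran from -0.37 for Hspb1 to 0.59 for Hsph1, none of them past the test. Under limma on RPKM the sign of Hsph1, Hsp90aa1, Hspe1 and Cryab was the opposite one, while Dnajb1 and Bag3 kept theirs (RPKM of 183 against 94.1 and 56.9 against 39.6).

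The members also differed in how far libraries of 1 depot spread (the heat map of libraries against their depot median). Hspa1a and Hspa1b spread most. The highest BAT library of Hspa1b held 64.3 times the level of the lowest, beside 9.76 times in eWAT and 5.51 times in iWAT, and for Hspa1a these ratios were 60.9, 7.70 and 6.10. BAT libraries 7 and 11 held the highest and the next highest level for 7 of the 10 genes, Hspa1a, Hspa1b, Hspa8, Hsph1, Dnajb1, Bag3 and Hspb1, though not for Hsp90aa1, Cryab or Hspe1. The lead over the third library was small for Hspb1 (20.5 against 20.2 RPM) and Hspa8 (58.9 against 57.8). How often these libraries lead over all rows was not counted, so the count cannot be set apart from a general trait of them. Hspe1 spread least in BAT, from 27.9 to 37.4 RPM. The summed immediate-early genes were also highest in BAT library 7, at 391 RPM.

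**Figure D4:**
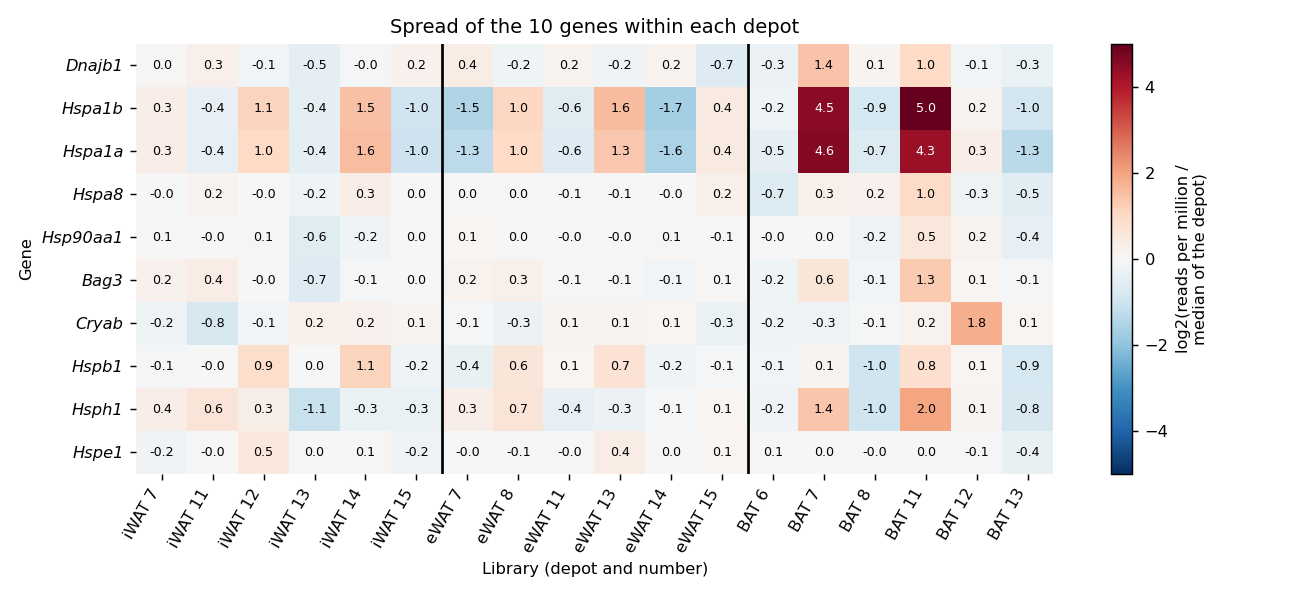
Heat map of log2 of each library's RPM over the median of its own depot, with the 10 genes in rows and the 18 libraries in columns grouped by depot. BAT libraries 7 and 11 stand above their depot median for Hspa1a, Hspa1b, Hspa8, Hsph1, Dnajb1, Bag3 and Hspb1, and BAT library 12 for Cryab.

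Per length, the order of the members differed between depots. In iWAT the highest RPKM was that of Dnajb1 (183 ± 31.8, SD, n = 6), then Hspa1b (157 ± 105), Cryab (70.6 ± 17.3) and Bag3 (56.9 ± 12.6), and the lowest was Hsph1 (10.4). In eWAT Hspa1b (156) came before Dnajb1 (94.1) and Cryab (76.2), and Hsph1 (13.1) was again lowest. In BAT, Hspa1b had the highest mean RPKM (23.8 ± 34.9), carried by libraries 7 and 11 since its median was 2.45, then Hspe1 (23.2 ± 2.31), while Dnajb1 (10.6) came eighth and Hspa1a (3.15) last. Ranges of neighbours in these orders overlapped throughout, except for Hspe1 (23.6) and Hsph1 in eWAT. For Hspa8, Hsp90aa1 and Hspb1 these levels leave out the reads at copies.

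Likeness of profile was measured over the 12 iWAT and BAT libraries as the root mean square difference of log2(RPKM + 0.1) after each gene's mean was taken away, over 6101 rows. It is a description, since the libraries share the depot contrast. Hspa1a was closest to Hspa1b (0.29). The rows closest to Hspa1b overlap it (Hspa1b/Hspa1a, 0.037, and 7330403C04Rik, 0.050), and the rows closest to Hsp90aa1 and Hspa8 were their copies on chromosomes 11 (0.054) and 10 (0.126). Hspb1 had Gm9817 (0.115) before its chromosome 13 copy (0.127). Bag3 was closest to rows of the pseudogenes Gm15542 (0.130) and Gm7816 (0.150), and Hspa8 was its closest fellow member (0.287). Dnajb1 was closest to Gem (0.365) and Csrnp1 (0.380), Cryab to Tmem182 (0.372) and Zfp385a (0.379), Hsph1 to H2-Q8 (0.485) and LOC100505331 (0.517), and Hspe1 to Tmem93 (0.155) and Tfam (0.160), the latter a mitochondrial transcription factor.

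Other chaperones were counted next. Of 75 other listed chaperone genes 72 were tested, of which 25 (34.7%) were called higher and 27 (37.5%) lower in iWAT than in BAT, near the 34.2% and 33.6% of all rows. In eWAT 23 (31.9%) were higher and 24 (33.3%) lower, near the 35.3% and 34.6% of all rows, so neither count sets these genes apart. In mean RPKM all 23 genes higher in eWAT kept that direction, and 8 of the 24 lower ones, 1 of them mitochondrial, did not. RPKM mostly raises eWAT against BAT, since single transcripts tend to be shorter than merged rows and TMM is left out. That the 23 kept their direction was thus near certain beforehand and is no check. The lists were not tested against each other. All 8 other mitochondrial chaperones were lower in both white depots, beside 33.6% and 34.6% of all rows (median log2 fold change -1.13 and -1.42), among them Dnaja3 (-1.87 in iWAT, -2.22 in eWAT), the mitochondrial HSP70 Hspa9 (-1.43, -1.52) and its exchange factor Grpel1 (-1.38, -1.50). Of 13 chaperones of the endoplasmic reticulum 11 were higher and 1 lower in each comparison (medians 0.89 and 0.77), beside 34.2% and 35.3% of all rows.

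Among cytosolic groups, whose counts stand beside the same shares of all rows, calls went both ways. Of 8 other HSP70 and HSP110 genes, 4 were higher and 2 lower in iWAT, and 3 and 2 in eWAT, with Hspa2 at 3.06 in iWAT and Hspa12a at 2.33 in iWAT and 1.96 in eWAT. Of 9 other J-domain genes 2 were higher and 2 lower in iWAT, and 2 and 3 in eWAT, and Dnajb4, a close relative of Dnajb1, was 2.44 and 1.96 higher. Of 11 genes of the HSP90 family and its co-chaperones 1 was higher and 6 lower in iWAT, and 1 and 5 in eWAT. Of 8 BAG proteins and HSP70 cofactors 4 were higher and 4 lower in iWAT, and 2 and 2 in eWAT. For the chaperonin CCT it was 1 and 3 of 7 in iWAT and 1 and 1 in eWAT. Small heat shock genes gave 2 higher of 4 in iWAT and 3 in eWAT, where Hspb7 stood 3.46 higher. Hsf1 itself was not called in iWAT (-0.23, edgeR, adjusted p = 0.0696) and was lower in eWAT on reads (-0.63, edgeR, adjusted p = 3.20e-05) though not in mean RPKM, with 4.77 in eWAT and 1.96 in BAT. Of the 4 heat shock factors and regulators 1 was lower in iWAT and 2 in eWAT, and 3 and 2 were not called.

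**Figure D5:**
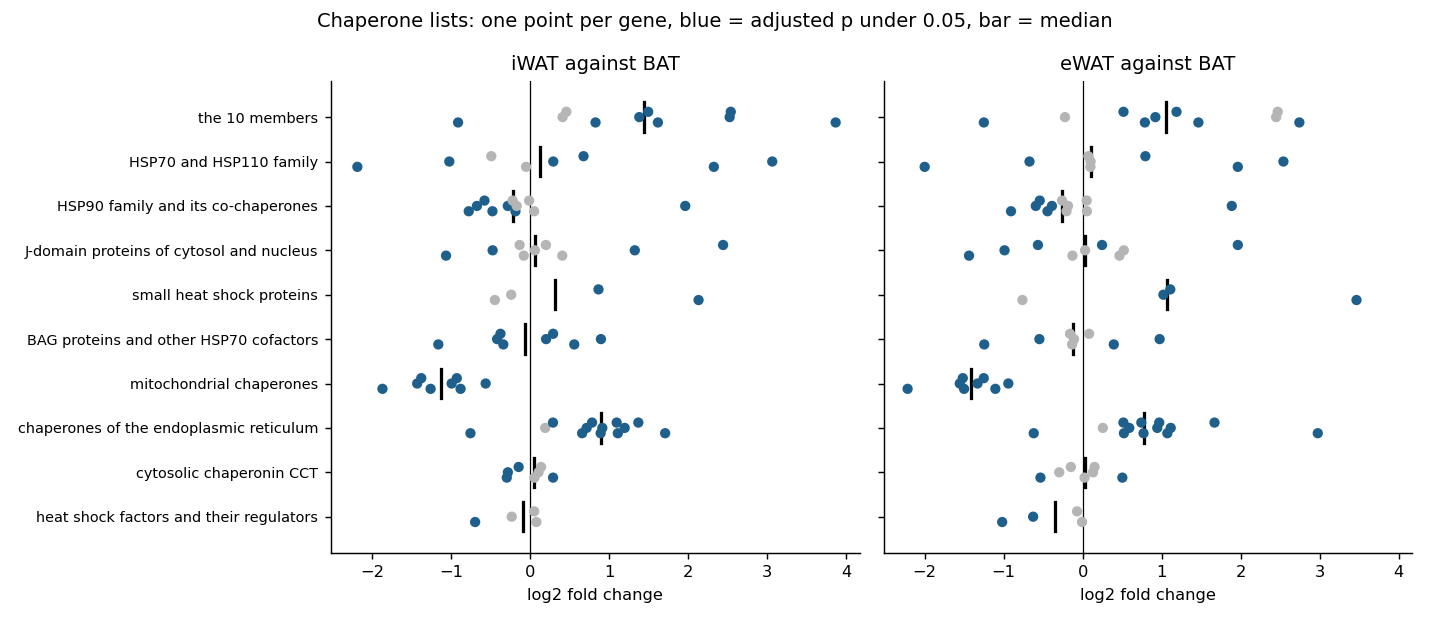
Log2 fold changes of 72 other chaperone genes by list, for iWAT and for eWAT against BAT, with 1 point per gene, blue where the adjusted p was under 0.05. The 8 mitochondrial genes all lie below 0 and 11 of the 13 endoplasmic reticulum genes are called above it.

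Between iWAT and eWAT, 11 of the 72 (15.3%) were called higher and 3 (4.17%) lower, beside 11.4% and 10.1% of all rows. In mean RPKM 9 of the 11 and 0 of the 3 had the opposite direction, so calls of higher levels here depend on row length. Division by row length mostly raises eWAT, so the 3 that kept their direction are no check. Dnajb9 of the endoplasmic reticulum was 0.55 higher in iWAT and kept its direction in RPKM (47.6 against 39.1). Dnaja1, a J-domain partner of HSP70, was 0.76 higher and the ubiquitin ligase Stub1 0.36 on reads, and neither was in RPKM. Hspb7 (-3.75) and Cacybp (-0.33) were lower. Of the mitochondrial list 3 of 8 were higher in iWAT on reads and 0 of these in RPKM, and Hspd1 was not called (0.07, edgeR, adjusted p = 0.661).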

How the data were processed

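RNA-seq was analysed in 6 iWAT adipocyte, 6 eWAT adipocyte and 6 BAT samples, grouped by the depot in the labels. Per the labels, reads were processed with cutadapt 1.16 and HISAT2 2.1.0 on mm9, and the study's methods name the Genomatix Genome Analyzer. The order of these steps and the handling of reads with several matches are not given in the sources used here. The authors deposited a read count per row, not normalized, and an RPKM, which equals the count divided by row length and by 1 total per sample of 22929576 to 34512470 reads. Rows were 53445 merged genes in iWAT and BAT and 189660 transcripts in eWAT.

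For each symbol the row with most reads in a kind of file was used. Rows that reached 10 reads in 6 or more samples were fitted with edgeR 4.0.16 in R 4.3.3 (quasi-likelihood test, TMM, 12 samples per comparison, Benjamini-Hochberg over all rows, threshold 0.05), after a test on simulated counts. Alternatives were DESeq2 1.42.0, limma 3.58.1 on log2(RPKM + 0.1 or 1) without TMM, and other scalings, filters and rows. Others were row length as an offset, a replicate block, all 18 samples in 1 fit, and leaving out each library. Copies were sought with blastn 2.17.0+ (95% identity) and their rows added, an alternative that, like the use of annotated loci (also with each library left out), was chosen after the data were seen. RefSeq promoters are of GRCm38.p6, and members were matched by symbol.

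The members, chaperone lists and markers were chosen with earlier results of these data known. Named were all 10 members, in each comparison and direction the 3 listed chaperones with the largest change past the threshold that reached a mean RPKM of 10 in the depot where they were higher, the 2 rows closest to each member among rows of mean RPKM 5 or more, Hspd1, Hsf1 and the strongest markers. Hspb6, Hspb7 in BAT and the overlapping rows were named after their values were seen. No 2 libraries held identical values.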

Additional observations from a re-analysis of the deposited data

Results flagged for a closer look

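Within each depot, the members were searched for a library whose gap to its nearest neighbour was a large part of the depot's whole range. The most-read row of each member was used, and for Hspa1a and Hspa8 also the annotated locus, 36 measures in all. In such a search chance flags about 1 in 20 groups. Flagged were 5 of the 36 measures. Cryab in BAT library 12 had a ratio of 0.888, with 66.1 RPM beside 15.8 to 21.4 in the other 5 libraries, and this library also held the highest muscle marker sum. Hspa8 in eWAT library 15, at its most-read row on chromosome 5, had a ratio of 0.688, with 455 RPM beside 383 in the next library, and this library held the highest macrophage marker sum, 2849 RPM. Hspe1 stood apart in each depot, though by small amounts: library 13 was lowest in BAT (0.658, 27.9 RPM beside a median of 35.7), library 13 was highest in eWAT (0.686, 22.2 RPM beside 17.3) and library 12 was highest in iWAT (0.702, 30.7 RPM beside 21.3). The part of the marker sums in these values was not tested.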

How the results depend on the processing

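Of 1114 values recomputed under alternatives, 979 kept their direction and call, or for counts stayed within 1.5 times, and the cause of the other changes was not tested unless named. No member turned direction in iWAT against BAT. Where only rows shared by both kinds of file were used, 4 of the 10 members remained to be tested. They were Bag3, Hspa1b, the row named Hspa1a inside Hspa1b, and Hspa8 at its chromosome 5 copy. The rows of Hspa1a and Hspa1b are nearly the same place. Of the 4, 4 were higher and 0 lower in iWAT than in BAT, 0 were lower in eWAT than in BAT and 0 higher in iWAT than in eWAT. Of all shared rows 3552, 3828 and 726 were called, and their share of the rows tested is not given here. With a log2 fold change of at least 1 required, 0 were lower in iWAT and 3 higher in eWAT against BAT, 1 was higher in iWAT than in eWAT, and 6122, 6843 and 1602 rows of all were called. Under limma with either pseudocount, 0 were lower in eWAT than in BAT and 1 lower in iWAT than in eWAT, with 9017 and 8734 rows of all called in the latter. With the eWAT transcript of highest RPKM, often a short one with few reads, 3 were lower in eWAT than in BAT and 1 lower in iWAT than in eWAT (9318 rows of all). With row length as an offset, 1 was lower in iWAT than in eWAT (9066 rows of all). Leaving out 1 library gave 5 to 7 members higher and 1 lower in iWAT against BAT, 6 to 8 higher in eWAT against BAT, and 1 to 3 higher in iWAT against eWAT, with 11917 to 12861, 11468 to 12335 and 2746 to 4024 rows of all called.

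All 39 turns of direction were in comparisons with eWAT. Against BAT, Hsph1 in eWAT was 0.049 with library totals, 0.0095 in the block fit, 1.31 and 1.13 under limma, 0.69 with the offset and -0.42 to 0.19 with 1 library left out (0.19 without BAT library 11), Hspe1 was 0.021 and 0.020 under limma, and Hsp90aa1 was -1.58 with the transcript of highest RPKM. For iWAT against eWAT, limma gave -0.38 and -0.35 for Hsph1, -0.011 and -0.010 for Hsp90aa1, -0.67 and -0.63 for Hspe1 and -0.14 for Cryab with both. The offset gave -0.32, -0.66 and -0.11 for Hsph1, Hspe1 and Cryab. The transcript of highest RPKM gave -0.34, -0.33, -0.19 and -0.045 for Hspa1a, Hspa1b, Hspa8 and Hspe1. Leaving out 1 library gave -0.32 to 0.47 for Hspa1a, -0.33 to 0.47 for Hspa1b and -0.34 to 0.41 for Hspa1a at its annotated locus.

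The main tests did not pair libraries by label number, since the labels do not explain it. Deviations of libraries with the same number correlated at -0.04 to 0.13 for iWAT and BAT and at -0.17 to 0.06 for eWAT and BAT. For iWAT and eWAT the range was -0.32 to 0.13. These values cannot tell whether such libraries came from 1 animal, since depots of 1 animal need not deviate alike. The replicate block compares depots only within numbers found in both, 4 pairs for either white depot and BAT and 5 for iWAT and eWAT. It thus uses fewer libraries than the main test. The block left 1 member higher in iWAT than in eWAT and 1078 rows of all called. With it the iWAT and BAT values were 3.27 for Hspa1a (edgeR, adjusted p = 0.0732) and 3.24 for Hspa1b (edgeR, adjusted p = 0.0762). Hspa1a and Hspa1b were called in 16 of 24 alternatives in iWAT against BAT (adjusted p 0.0013 to 0.0762 over both), and Bag3 in 18 of 27 in iWAT against eWAT.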
